A study of Mus musculus with 12 samples.

Results

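Lipid-associated macrophage genes are a set of 9 genes named in advance by symbol (Trem2, Tyrobp, Cd9, Gpnmb, Spp1, Lgals3, Fabp4, Fabp5 and Plin2). Of these, 8 were found by exact symbol among the 25919 gene rows of the table, and Trem2 was not analysed here. The table covers bulk 3′-end RNA sequencing of poly(A) RNA from livers of C57BL/6 mice aged 7 weeks, in 12 libraries and 4 groups. The comparison used 4 libraries labelled CD40 at day 2 and 2 libraries labelled Kupffer cells at day 0. Label and day differ together between them, so they cannot be told apart. Per the labels, all libraries share strain, age and tissue. The labels do not name a treatment, the event that starts the day count, a sort, or a donor animal for each library. The p-values here therefore reflect how much the libraries of a group vary, and that variation may be technical. The columns of a group carry no replicate number and are called a, b, c and d as names only. The 2 groups labelled Kupffer cells at day 7 and Ly6C CD40-negative at day 2 were not read by gene. Along the table, whose rows run downward by the count of Kupffer day 0 a, the first column of each of them steps up only 1 time, whereas the CD40 day 2 columns step up 7642 to 9144 times.

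Lipid-associated macrophages are cells that take up lipid from dying cells, adipose tissue or damaged liver and store or export it. The receptor TREM2 binds lipids and lipoproteins at their surface and signals through DAP12, the adaptor that Tyrobp encodes. The other genes of the set encode secreted or surface glycoproteins, a lectin, a tetraspanin, fatty acid carriers and the coat of lipid droplets. None of them is private to macrophages: Fabp4 is also a gene of capillary endothelium and fat cells, Spp1 of bile duct cells, Plin2 of hepatocytes and stellate cells, and Cd9 of endothelial cells and platelets.

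Library totals were 725683 to 2271228 counts in CD40 day 2, and 1612435 and 688498 in Kupffer day 0. Levels are in CPM, where each count is divided by its library's total after TMM scaling, a correction for differing make-up. Cd40 itself was at 330 ± 72.6 CPM in CD40 day 2 (SD, n = 4) and 19.1 ± 1.41 CPM in Kupffer day 0 (n = 2). Adgre1, which encodes the macrophage surface protein F4/80, was at 99.6 ± 61.6 CPM in CD40 day 2 and 95.4 ± 8.83 CPM in Kupffer day 0. The Kupffer day 0 libraries held the Kupffer marker list (0.534% and 0.458% of counts), but more of the sinusoidal endothelial marker list (2.16% and 2.3%) and of the capillary and large-vessel endothelial list (0.73% and 0.837%). In CD40 day 2 the sinusoidal list took 0.0708% to 0.121% and the capillary list 0.0135% to 0.043%, while the monocyte list took 1.7% to 2.41%, against 0.188% and 0.177% in Kupffer day 0. In bulk libraries of this kind, fewer cells of a type and less RNA per cell cannot be told apart.

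**Figure D1:**
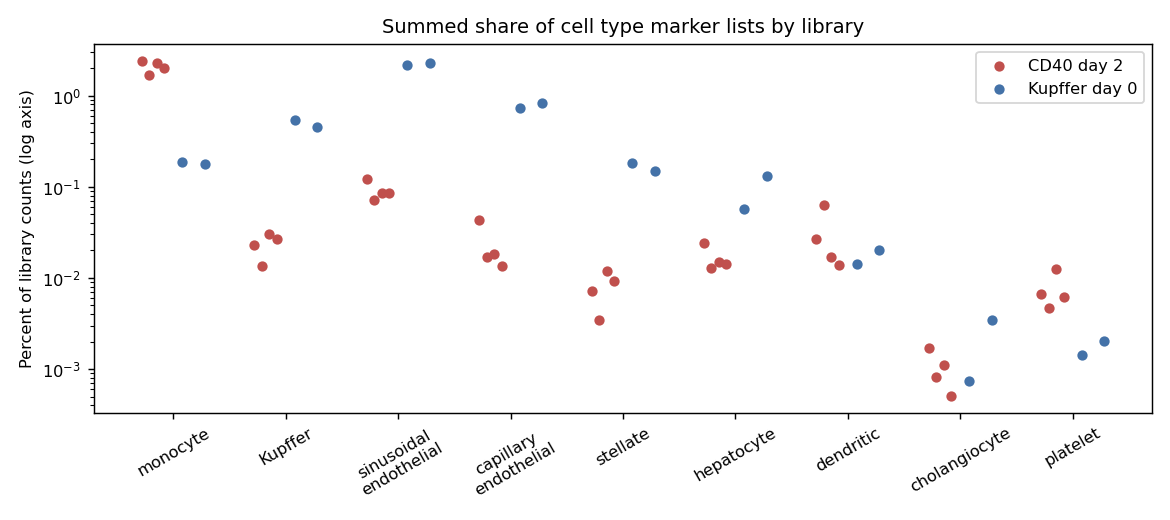
Summed share of library counts (percent, log axis) for 9 cell type marker lists, 1 point per library, CD40 day 2 in red on the left of each pair and Kupffer day 0 in blue. The capillary endothelial list took 0.0135% to 0.043% in CD40 day 2, against 0.73% and 0.837% in Kupffer day 0.

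The set split in its direction. Tyrobp, Gpnmb, Spp1 and Lgals3 rose in CD40 day 2, Cd9 and Fabp4 fell, and Fabp5 and Plin2 did not pass the test (edgeR's quasi-likelihood test, two-sided, Benjamini-Hochberg adjusted p under 0.05 over 9852 genes). So 6 of 8 genes were called, where 53.4% of all genes tested were called. The 4 called higher stand beside 23.2% of all genes called higher, and the 2 called lower beside 30.2% called lower. The libraries of the groups did not overlap for 6 of the 8, against 66.6% of all genes tested (29.7% with CD40 day 2 higher, 36.9% lower). All 6 were also called, and 52.8% of all genes tested were both called and separate. The median log2 fold change of the 8 genes was 1.36, and of all genes tested -0.10. Only the CD40 day 2 libraries carried Gpnmb past the filter on low counts, so its place among the genes tested already implied a difference. An exact permutation test over these 6 libraries has 15 splits and cannot give a p under 0.0667.

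**Figure D2:**
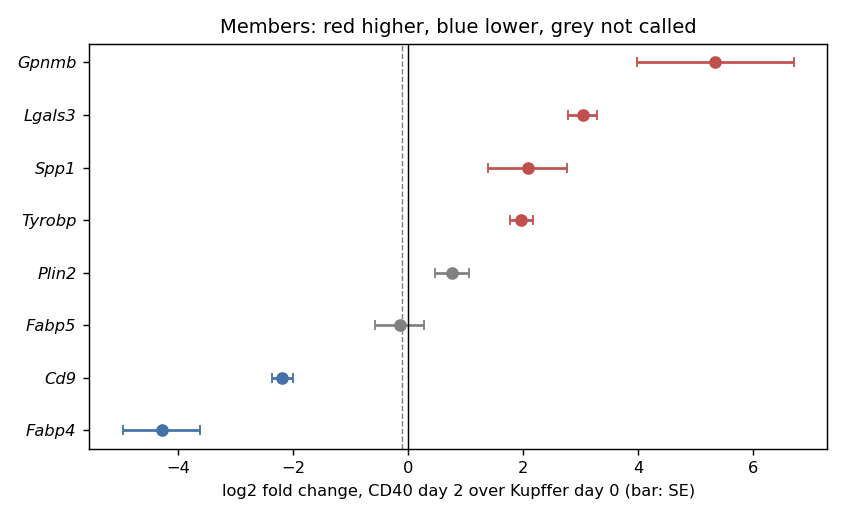
Log2 fold change of CD40 day 2 over Kupffer day 0 with its standard error for the 8 genes, red where called higher, blue where called lower and grey where not called; the dashed line is the median of all genes tested. Gpnmb, Lgals3, Spp1 and Tyrobp lie right of zero and Cd9 and Fabp4 left of it.

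Tyrobp, the adaptor gene through which TREM2 signals, was among the most evenly measured. It had 4621, 4159, 4788 and 5406 CPM in CD40 day 2 libraries a to d, against 1058 and 1379 CPM in Kupffer day 0 a and b. Every CD40 library was above both Kupffer libraries, with little spread inside either group. Tyrobp thus rose 3.9-fold (log2 fold change 1.96 ± 0.20 SE, edgeR adjusted p = 3.03e-05). Tyrobp lies on chromosome 7 from 30413760 to 30417585 on the plus strand of GRCm38, with no other annotated gene overlapping it. The gene of the related adaptor DAP10, Hcst, lies 126 bases away.

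Of 15 tested genes of a TREM2-DAP12 signalling and shedding list, 12 were higher and 2 lower in CD40 day 2, beside 23.2% higher and 30.2% lower among all genes tested. The median log2 fold change was 1.42, beside -0.10 for all genes tested. Of the 12, 2 passed the filter on low counts through CD40 day 2 alone, so that being tested already implied a difference. The same limit is given for each list below. It counts genes for which no library of the other group reached the filter's level, 7.16 CPM on plain totals. The filter needs 2 libraries, so a gene with only 1 in the other group also passed through 1 group. The counts leave such genes out. Among genes named below, they include Cst7, Itgax, Mitf, Ppargc1b, Sirpb1b and Tspan32 with 1 Kupffer library. Mgll, Itga9, Igf1 and Tspan9 likewise had 1 CD40 library at that level. Hcst was at 84.1 ± 23.7 CPM in CD40 day 2 and 42.9 ± 6.28 CPM in Kupffer day 0 (log2 fold change 1.02 ± 0.29, edgeR adjusted p = 0.0129). Syk, the kinase that docks on phosphorylated DAP12, was at 75.7 ± 5.30 against 19.5 ± 0.0165 CPM (1.96 ± 0.21, edgeR adjusted p = 4.63e-05). Lat2, an adaptor downstream of Syk, had the largest rise of the list, with 257 ± 9.07 CPM in CD40 day 2 and 12.4 ± 6.13 CPM in Kupffer day 0. Ptpn6, which encodes the inhibitory phosphatase SHP-1, was at 1010 ± 70.1 against 113 ± 1.18 CPM. The 2 that fell were Pik3r1, a regulatory subunit of phosphoinositide 3-kinase (19.5 ± 4.63 against 44.1 ± 13.1 CPM), and Adam10, a protease that sheds TREM2 from the cell (76.1 ± 30.8 against 165 ± 10.5 CPM). Adam17, the other shedding protease on the list, was higher, at 94.5 ± 13.3 CPM in CD40 day 2 and 39.1 ± 5.76 CPM in Kupffer day 0. Without Kupffer day 0 a no gene of the list was called lower, and without Kupffer day 0 b 1 was.

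Of a list of other myeloid receptors drawn up for DAP12, 7 of 9 tested genes were higher and 0 lower (median log2 fold change 2.28). Among all genes tested 23.2% were higher. Use of DAP12 by each receptor was not tested, including Cd300lf, which is among the 7. Of the 7, 2 had no Kupffer library at the filter's level, Cd200r4 among them, and Sirpb1b had only 1. Clec5a, a myeloid C-type lectin, was at 228, 90.5, 249 and 247 CPM in CD40 day 2 a to d, against 10.3 and 9.75 CPM in Kupffer day 0. Cd200r4, an activating receptor, held 201 counts over the 4 CD40 libraries, against 1 over the Kupffer pair. The ratio of these sums over plain library totals was 77.7 (95% counting interval 13.8 to 3083). Cd300lb and Cd300ld did not pass the test (log2 fold change 0.87 and -0.33).

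Gpnmb had the largest change of the set and the least even one. It encodes a transmembrane glycoprotein of lysosomes and the cell surface that marks lipid-laden macrophages. It had 30.9, 12.7, 52.3 and 175 CPM in CD40 day 2 a to d, against 0.574 and 4.18 CPM in Kupffer day 0 a and b. All 4 CD40 libraries exceeded both Kupffer libraries, but CD40 d held 3.33 times the level of the next library and CD40 b stood lowest. In counts these were 34, 9, 115 and 293 against 1 and 3, so the Kupffer level rests on 4 counts in all. Its log2 fold change was 5.34 ± 1.37 (edgeR adjusted p = 0.0083). Summed counts over plain library totals stood in a ratio of 43.6 (95% counting interval 16.9 to 161). The fold change was 4.29 without CD40 d, and 6.75 without Kupffer day 0 b. Without Kupffer day 0 a it was 4.05 and no longer called (edgeR adjusted p = 0.129, range over the alternatives 1.12e-27 to 0.129). Gpnmb spans 49036546 to 49070929 on the plus strand of chromosome 6.

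Spp1, which encodes osteopontin, a secreted phosphoprotein that binds integrins and CD44, had 29.1, 41.0, 40.5 and 112 CPM in CD40 day 2 a to d, against 6.89 and 25.1 CPM in Kupffer day 0 a and b. The groups did not overlap, but CD40 a and Kupffer b lay close together, and CD40 d was 2.73 times the next library. The log2 fold change was 2.07 ± 0.68 (edgeR adjusted p = 0.0276). It was 1.44 without CD40 d, 3.03 without Kupffer day 0 b, and 1.18 without Kupffer day 0 a, where it was not called (edgeR adjusted p = 0.303, range over the alternatives 8.33e-09 to 0.303). Bile duct cells also make Spp1, and their keratin gene Krt19 was at 0, 1.41, 0 and 0 CPM in CD40 day 2 a to d, against 1.15 and 13.9 CPM in Kupffer day 0 a and b. The cholangiocyte marker list took 0.000507% to 0.00169% of counts in CD40 day 2, against 0.000744% and 0.00349% in Kupffer day 0. The part of such RNA in the Spp1 level of Kupffer day 0 b was not tested. Spp1 lies on chromosome 5 from 104435118 to 104441050 on the plus strand and overlaps an unclassified transcript on its own strand.

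Of 9 tested genes of osteopontin receptors, 1 was higher and 4 lower, beside 23.2% and 30.2% of all genes tested, with a median log2 fold change of -0.81. Of the 4, 2 had no CD40 library at the filter's level, Itga8 among them, and Itga9 had only 1. Itga4, the alpha-4 integrin of leukocytes, was at 148 ± 26.1 CPM in CD40 day 2 and 33.2 ± 1.71 CPM in Kupffer day 0. Itga9 (5.35 ± 2.20 against 115 ± 5.66 CPM) and Itga8 (1.77 ± 0.914 against 68.5 ± 2.26 CPM), integrins found on stromal and endothelial cells, had the largest falls. Cd44 was at 108 ± 33.3 CPM in CD40 day 2 and 80.7 ± 6.08 CPM in Kupffer day 0 and did not pass the test.

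Lgals3, the gene of galectin-3, a glycan-binding lectin that gathers at damaged lysosomes and is released by macrophages, had 3270, 4039, 3788 and 5446 CPM in CD40 day 2 a to d, against 515 and 497 CPM in Kupffer day 0. The lowest CD40 library was far above the Kupffer pair. The log2 fold change was 3.03 ± 0.25, an 8.17-fold rise (edgeR adjusted p = 7.86e-06), and it lay between 2.86 and 3.13 with any 1 library left out. Lgals3 lies on chromosome 14 from 47367751 to 47386160 on the plus strand, with no overlapping gene. Of the other galectins, 1 of 5 tested was higher and 1 lower, beside 23.2% and 30.2% of all genes tested (median log2 fold change 0.14). The lower one was tested through Kupffer day 0 alone. Lgals1 was at 1324 ± 40.8 CPM in CD40 day 2 and 929 ± 207 CPM in Kupffer day 0 (0.51 ± 0.17, edgeR adjusted p = 0.0297), a call lost without CD40 c, CD40 d or Kupffer day 0 b. Lgals9, at 437 ± 111 against 377 ± 10.4 CPM, was not called. Tyrobp and Lgals3 together made up 90.8% to 94.9% of the counts of the 8 genes in CD40 day 2, and 53.1% and 52% in Kupffer day 0.

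**Figure D3:**
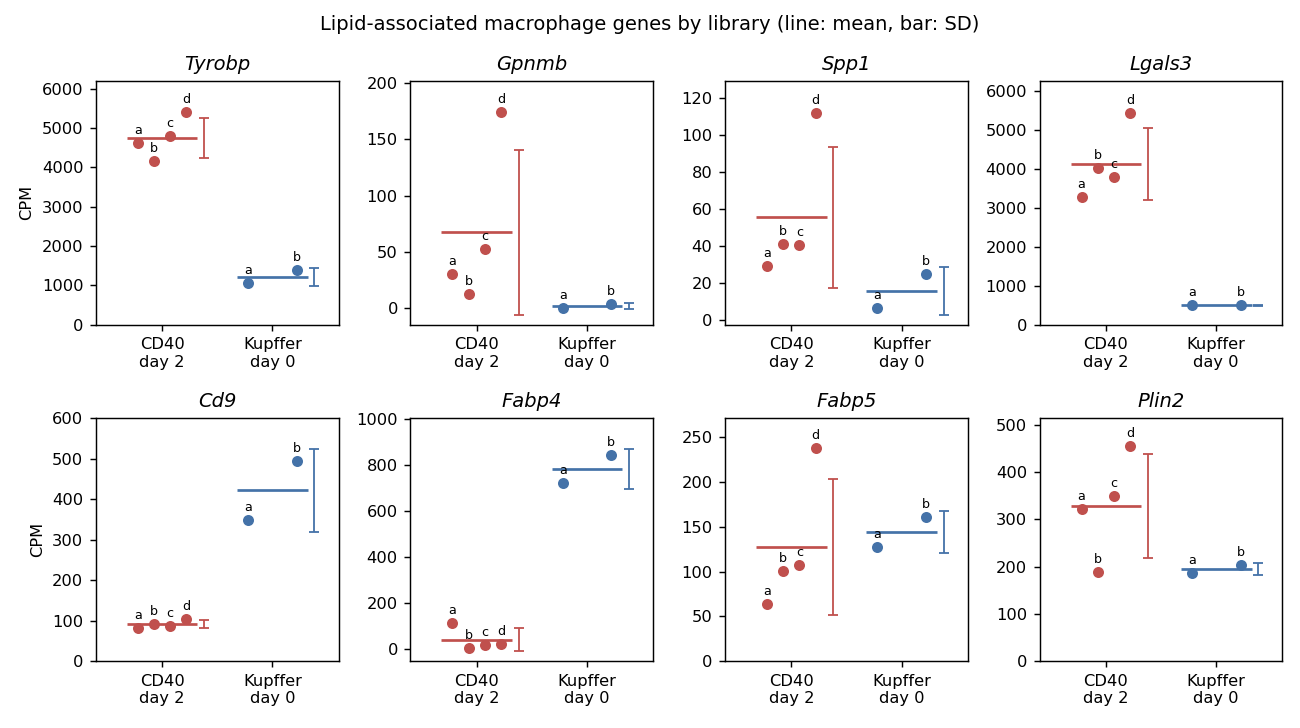
CPM of the 8 genes, 1 panel each with its own axis, for 4 CD40 day 2 libraries (red, left) and 2 Kupffer day 0 libraries (blue, right), lettered as in the text, with the mean as a line and the SD as a bar. CD40 d is the highest red point in every panel but that of Fabp4, where CD40 a is highest at 114 CPM.

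Promoter sequences of genes that rose are shown because the genes moved in one direction in the same libraries. They are the 250 bases before the annotated start, from RefSeq on GRCm38.p6, plus strand. The Lgals3 window lies inside the span given above for the gene (47367751 to 47386160). It is therefore not the sequence before that span. Entries matched 5 of the 8 genes; Tyrobp, Fabp4 and Fabp5 are named only. Capitals mark matches, on either strand, to CACGTG (E-box, bound by MiT/TFE factors), TGANTCA (AP-1), GAGGAA (core of PU.1 sites) or TATAAA (a core promoter element).
Gpnmb, chr6:49036268-49036517: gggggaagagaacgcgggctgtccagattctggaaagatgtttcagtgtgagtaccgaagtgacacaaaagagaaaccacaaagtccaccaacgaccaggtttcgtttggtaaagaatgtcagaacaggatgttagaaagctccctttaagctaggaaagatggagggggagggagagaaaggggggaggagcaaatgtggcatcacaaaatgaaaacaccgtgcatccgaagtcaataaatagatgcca
Spp1, chr5:104434861-104435110: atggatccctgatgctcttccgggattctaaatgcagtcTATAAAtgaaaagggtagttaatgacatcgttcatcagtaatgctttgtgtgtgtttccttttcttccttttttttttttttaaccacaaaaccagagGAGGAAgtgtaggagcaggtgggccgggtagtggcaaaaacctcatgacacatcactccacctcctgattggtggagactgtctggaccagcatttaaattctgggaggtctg
Lgals3, chr14:47373610-47373859: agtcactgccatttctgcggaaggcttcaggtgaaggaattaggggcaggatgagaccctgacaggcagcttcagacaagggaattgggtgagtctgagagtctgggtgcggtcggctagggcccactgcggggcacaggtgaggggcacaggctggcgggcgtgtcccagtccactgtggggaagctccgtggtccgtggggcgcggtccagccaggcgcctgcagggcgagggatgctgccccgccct
The Spp1 window held a TATAAA match 211 bases and a GAGGAA match 113 bases before the start, and the Gpnmb and Lgals3 windows held none of the 4 motifs. Among all 32851 windows of this length, 6.02% held the E-box, 6.75% the AP-1 motif, 23.3% GAGGAA and 12.4% TATAAA. A second Spp1 start inside the gene, which is not shown, had no match, and neither had the windows of Cd9 and Plin2.

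Genes of the MiT/TFE factors, which drive lysosomal genes and Gpnmb, are listed beside it. Mitf was at 32.9 ± 8.98 CPM in CD40 day 2 and 8.73 ± 3.41 CPM in Kupffer day 0 (log2 fold change 2.06 ± 0.40, edgeR adjusted p = 0.00173). Tfeb was at 36.9 ± 7.69 against 14.2 ± 9.49 CPM (1.596 ± 0.407, edgeR adjusted p = 0.00811). Tfec was lower, at 11.9 ± 8.70 against 45.2 ± 3.03 CPM, and so was Flcn, whose product restrains these factors, at 31.3 ± 4.38 against 65.4 ± 9.79 CPM. Of 11 tested genes on the list, 3 were higher and 2 lower (median log2 fold change -0.13), beside 23.2% and 30.2% of all genes tested, and without Kupffer day 0 a none was called in either direction.

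Cd9 was the clearest fall. It encodes a tetraspanin that organises receptors in the membrane, and it had 81.9, 93.4, 87.4 and 104 CPM in CD40 day 2 a to d, against 350 and 494 CPM in Kupffer day 0 a and b. Every CD40 library was below both Kupffer libraries. On the log2 scale Cd9 changed by -2.19 ± 0.18 (edgeR adjusted p = 9.39e-06), and -2.43 to -1.93 with any 1 library left out. Cd9 lies on the minus strand of chromosome 6 from 125460266 to 125494791 and overlaps 2 transcripts on the plus strand. Its listed pseudogene Cd9-ps held 0 to 2 counts per CD40 library, and 6 and 0 in Kupffer day 0.

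Of the other tetraspanins and CD9 partners, 5 of 15 tested genes were higher and 6 lower, beside 23.2% and 30.2% of all genes tested (median log2 fold change -0.26). Cd81, the closest partner of CD9 in the membrane, was at 303 ± 199 CPM in CD40 day 2 and 3660 ± 15.9 CPM in Kupffer day 0 (log2 fold change -3.59 ± 0.42, edgeR adjusted p = 7.74e-05). Cd81 was uneven within CD40 day 2, with 598, 160, 235 and 220 CPM in a to d. Tspan7 (27.2 ± 20.02 against 1282 ± 48.0 CPM) and Tspan9 (5.06 ± 4.53 against 103 ± 1.19 CPM) had the largest falls. Cd53, a tetraspanin of leukocytes, was at 412 ± 45.3 against 89.3 ± 13.5 CPM, and Tspan32 at 62.5 ± 31.2 against 4.34 ± 3.71 CPM. Several marker lists were lower in every CD40 library along with Cd9 and Cd81. Of the genes tested, 12 of 12 sinusoidal endothelial, 5 of 6 capillary, 9 of 9 stellate and 9 of 11 Kupffer markers were lower. Among all genes tested 30.2% were lower. Of these, 7 stellate, 3 Kupffer and 2 capillary genes were tested through Kupffer day 0 alone. The Kupffer list took 0.0135% to 0.03% of counts in CD40 day 2, against 0.534% and 0.458% in Kupffer day 0, and the stellate list 0.00345% to 0.0118%, against 0.181% and 0.149%. The summed share of the platelet list was higher, at 0.00469% to 0.0125% in CD40 day 2, against 0.00143% and 0.00203% in Kupffer day 0. In CD40 day 2 that share rested mostly on Gp6, with 483 counts over these libraries and 3 over the Kupffer pair. Itga2b, the other of its 2 tested genes, held 13 against 27 counts. Gp6 was called higher and Itga2b lower, each tested through 1 group alone. The part of RNA of these cell types in the tetraspanin levels was not tested. Without Kupffer day 0 a 2 tetraspanin genes were called higher, and without Kupffer day 0 b 3 were.

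Fabp4, a carrier of fatty acids, had 114, 7.07, 18.7 and 21.4 CPM in CD40 day 2 a to d, against 718 and 843 CPM in Kupffer day 0 a and b. The groups were far apart, but CD40 a held 5.31 times the level of the next CD40 library. The log2 fold change was -4.29 ± 0.68 (edgeR adjusted p = 0.000504), and -5.50 without CD40 a. The capillary endothelial markers were also highest in CD40 a, with 0.043% of counts there, and 0.0169%, 0.0182% and 0.0135% in CD40 b, c and d. The order of the other 3 differed between Fabp4 and the markers, but Fabp4 rested there on only 5, 41 and 36 counts in CD40 b, c and d. Gpihbp1, the capillary protein that anchors lipoprotein lipase, was at 206, 79.2, 91.5 and 70.9 CPM in CD40 day 2 a to d, against 4411 and 5278 CPM in Kupffer day 0. The part of endothelial RNA in the Fabp4 level was not tested. Fabp4 lies on the minus strand of chromosome 3 from 10204088 to 10208576.

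Fabp5, its neighbour 187480 bases away (10012548 to 10016607, plus strand), is a carrier of the same family. It had 63.7, 100, 107 and 237 CPM in CD40 day 2 a to d, against 127 and 160 CPM in Kupffer day 0. The Kupffer values lay inside the CD40 range, with 3 CD40 libraries below them and CD40 d above. Its log2 fold change was -0.15 ± 0.42 (edgeR adjusted p = 0.789), -0.66 without CD40 d (adjusted p = 0.05004), and slightly positive without CD40 a, CD40 b or Kupffer day 0 b. A pseudogene listed apart, Fabp5l2, held 0 to 3 counts per CD40 library, and 2 in each Kupffer library, and counts of Fabp5 could in part come from such copies.

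Among the other lipid-binding carriers, 1 of 5 tested genes was higher and 3 lower, beside 23.2% and 30.2% of all genes tested (median log2 fold change -3.22). Of the 3, 2 were tested through Kupffer day 0 alone, Fabp7 among them. Fabp7, which Kupffer cells express, was at 2.87 ± 3.11 CPM in CD40 day 2 and 122 ± 12.4 CPM in Kupffer day 0. Dbi, the acyl-CoA-binding protein, was the 1 that rose, at 619 ± 118 against 410 ± 21.5 CPM, and its call was lost without CD40 a, CD40 c or either Kupffer library.

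Plin2, which coats lipid droplets and rises when cells store fat, had 322, 188, 349 and 454 CPM in CD40 day 2 a to d, against 187 and 205 CPM in Kupffer day 0. Of the CD40 libraries 3 were above both Kupffer libraries, and CD40 b lay between them. The log2 fold change was 0.76 ± 0.30 and missed the threshold (edgeR adjusted p = 0.0532, range over the alternatives 0.000994 to 0.256). Without CD40 b it was 1.01 and called, and it was also called by DESeq2 (adjusted p = 0.0423). The gene spans 86648386 to 86670060 on the minus strand of chromosome 4.

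Of 21 tested lipid droplet and triglyceride genes, 6 were higher and 7 lower (median log2 fold change 0.12). These shares lie near the 23.2% higher and 30.2% lower among all genes tested. Of the 7, 2 had no CD40 library at the filter's level, and Mgll had only 1. Acsl1, which activates fatty acids for storage or burning, was at 155 ± 28.6 CPM in CD40 day 2 and 18.03 ± 6.01 CPM in Kupffer day 0, and Soat1, which esterifies cholesterol for droplets, at 176 ± 39.3 against 67.0 ± 14.0 CPM. Plin3, another droplet coat, was at 82.6 ± 19.4 against 50.1 ± 5.93 CPM (0.72 ± 0.26, edgeR adjusted p = 0.0373). Mgll, the monoglyceride lipase, was at 8.33 ± 2.96 CPM in CD40 day 2 and 317 ± 19.6 CPM in Kupffer day 0, and Gpat4, an early enzyme of triglyceride synthesis, at 35.1 ± 3.55 against 69.4 ± 16.1 CPM. These counts were unsteady, with 3 higher without either Kupffer library and 2 lower without Kupffer day 0 b.

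Among genes of fatty acid uptake and their PPAR control, Lpl, the lipase that frees fatty acids from lipoproteins, had 335, 103, 623 and 609 CPM in CD40 day 2 a to d, against 89.6 and 97.5 CPM in Kupffer day 0 (log2 fold change 2.18 ± 0.60, edgeR adjusted p = 0.0122). CD40 b was barely above the Kupffer libraries. Cd36, a fatty acid and lipoprotein receptor, had 17.3, 12.7, 21.8 and 37.5 CPM in CD40 day 2, against 185 and 247 CPM in Kupffer day 0 (-3.18 ± 0.31, edgeR adjusted p = 2.43e-05). The part of endothelial RNA in the Cd36 level was not tested. Pparg, the receptor that controls Fabp4 and Cd36 in fat cells and macrophages, stood at 13.5 ± 9.90 against 7.91 ± 0.631 CPM and was not called. Of 10 tested genes on this list 2 were higher and 3 lower (median log2 fold change -0.33), near the 23.2% and 30.2% of all genes tested. Of the 3, 2 had no CD40 library at the filter's level, and Ppargc1b, 1 of the 2 higher, had only 1 Kupffer library at it. Without Kupffer day 0 a none was called higher, and without Kupffer day 0 b 1 was.

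Of 33 tested other genes reported in lipid-associated and disease-associated macrophages, 14 were higher and 5 lower, beside 23.2% and 30.2% of all genes tested (median log2 fold change 0.64). Of the 14, 1 had no Kupffer library at the filter's level, and Cst7 and Itgax had only 1 each. Cst7, a cystatin that inhibits lysosomal proteases, was at 256 ± 67.3 CPM in CD40 day 2 and 7.38 ± 2.56 CPM in Kupffer day 0. Capg, an actin-capping protein, was at 826 ± 347 against 59.9 ± 1.92 CPM, and Cd68, a lysosomal membrane protein of macrophages, at 852 ± 220 against 224 ± 0.189 CPM. Apoe, a TREM2 ligand and carrier of exported lipid, had 520, 403, 620 and 1312 CPM in CD40 day 2 a to d, against 10545 and 13456 CPM in Kupffer day 0 (-4.07 ± 0.40, edgeR adjusted p = 2.35e-05). Igf1, a growth factor gene, was at 4.57 ± 5.13 against 85.1 ± 2.22 CPM. Lysosomal genes of this list went different ways. Ctsz, Cstb, Npc2 and Grn were called higher (log2 fold change 2.91, 2.10, 1.88 and 0.85), Ctsl was called lower (-3.57), and Ctsb, Ctsd and Lipa did not pass the test (0.35, -0.07 and -0.03). Without Kupffer day 0 a, 9 genes of this list were called higher.

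The 4 CD40 day 2 libraries were not alike in these genes. CD40 d was the highest of the 4 for 7 of the 8 genes, where it was highest for 26% of all genes tested. For the list of other lipid-associated macrophage genes it was highest in 22 of 33. The same held for 8 of 11 MiT/TFE, 7 of 10 uptake, 4 of 5 other galectin and 5 of 9 DAP12 receptor genes. Its share was smaller than in those lists, but above 26%, in the droplet list (7 of 21) and the tetraspanins (5 of 15). CD40 d was highest for 3 of 9 osteopontin receptors (33.3%). Below 26% were the TREM2-DAP12 signalling list (3 of 15, 20%) and the lipid carriers (1 of 5, 20%). The coefficient of variation over the 4 libraries was 108% for Gpnmb, 68.2% for Spp1, 59.7% for Fabp5 and 123% for Fabp4, against 10.4% for Cd9, 10.9% for Tyrobp and 22.5% for Lgals3. The median over all genes tested was 24.8%.

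Adgre1 was also uneven, at 55.5, 38.2, 144 and 160 CPM in CD40 day 2 a to d, and Cd68 stood at 756, 628, 880 and 1144 CPM. Cd40 ran the other way, at 382, 375, 340 and 225 CPM, lowest in d. The dendritic cell marker list was highest in CD40 b (0.0633% of counts, against 0.014% to 0.0266% in the other 3). CD40 b was lowest for 4 of the 8 genes, Gpnmb and Plin2 among them, and for Lpl. It was also lowest for 33.4% of all genes tested. The part of any such difference in cell make-up in the members' levels was not tested.

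**Figure D4:**
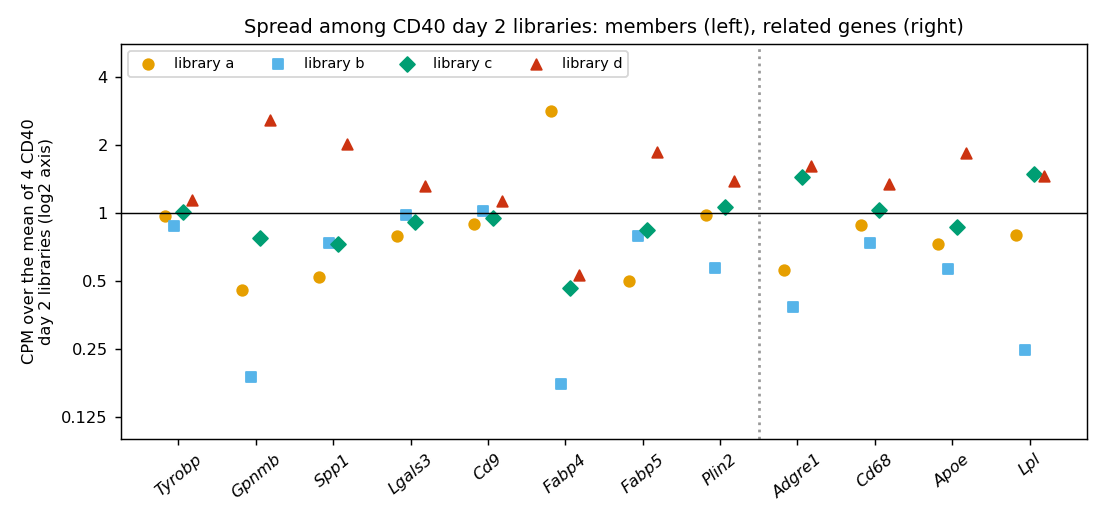
CPM of each gene in a CD40 day 2 library over the mean of the 4 CD40 day 2 libraries (log2 axis), with the 8 genes on the left and Adgre1, Cd68, Apoe and Lpl on the right of the dotted line. Library d reaches 2.58 times the mean for Gpnmb and 2.01 for Spp1, and library a 2.83 times the mean for Fabp4.

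The calls differed in how far they rested on single libraries. Tyrobp, Lgals3, Cd9 and Fabp4 stayed called with each of the 6 libraries left out in turn. Gpnmb and Spp1 were lost without Kupffer day 0 a, which left 1 Kupffer library assumed to vary like the CD40 ones. Over all genes tested, 3206 were called without Kupffer day 0 a, against 5262 with all 6 libraries.

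**Figure D5:**
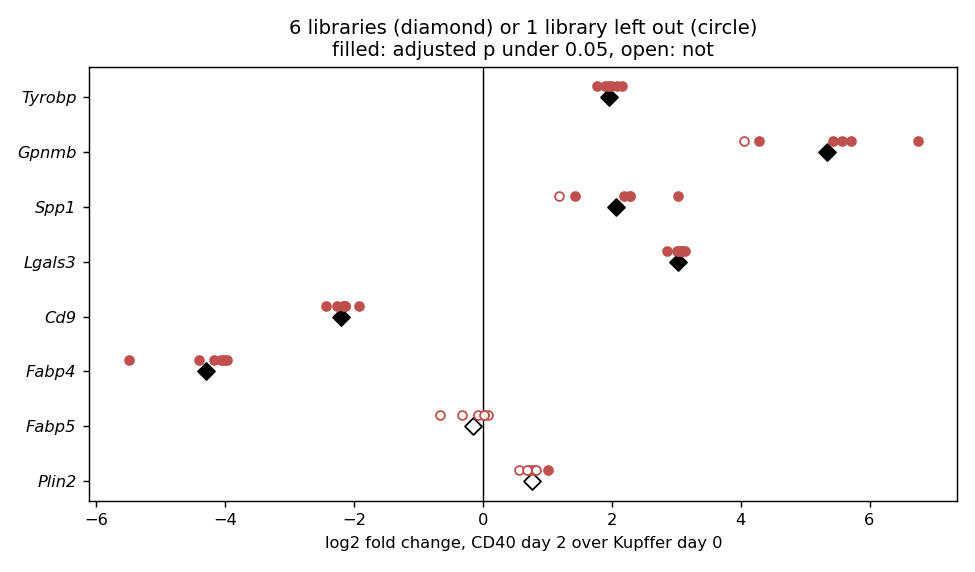
Log2 fold change of CD40 day 2 over Kupffer day 0 for each gene with all 6 libraries (diamonds) and with 1 library left out (circles), filled where the adjusted p was under 0.05. Open circles appear for Gpnmb at 4.05 and Spp1 at 1.18, both without Kupffer day 0 a, and for Fabp5 and Plin2.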

How the data were processed

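Bulk 3′-end poly(A) RNA libraries with barcodes and molecular identifiers were deposited by the authors as raw counts per gene symbol. The submitters' processing notes name GRCm38.p6 as build and list DESeq2 1.22.2. Neither aligner, counter nor strand setting is given there, nor whether molecular identifiers or reads were counted. All 12 value columns matched a group, and 6 were used by gene. A quasi-likelihood model without a block was fitted to these 6 in edgeR 4.0.16 under R 4.3.3, after TMM scaling and filterByExpr at its defaults (common biological coefficient of variation 20.4%). The fit was tested on simulated data. Levels are CPM over TMM-scaled totals, with SD. The SE is the fold change over the root of F. Libraries of a group all differed by more than counting error (chi-square over its degrees of freedom, 3.17 to 11.7). Intervals cover counting error only. Locations come from GENCODE M21 on GRCm38.

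The genes, the wider lists and the tests were chosen with earlier results of these data known. Named genes were the members, set partners and checks. Per list they also included up to 2 called rises and 2 called falls by fold change, without overlap between groups and at 20 CPM or more on average. Adam17, Cd300lb, Cd300ld, Krt19, Lgals9, Ctsb, Ctsd, Ctsl, Ctsz, Cstb, Npc2, Grn and Lipa were named after their values were seen. So were Itgax, Ppargc1b and Sirpb1b, for how they passed the filter. Alternatives were RLE scaling, DESeq2 1.42.0, other count filters, each library left out, plain totals, and, chosen after seeing the data, a fit without the endothelial, stellate and hepatocyte marker genes.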

Additional observations from a re-analysis of the deposited data

Results flagged for a closer look

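In groups of 4 libraries, a value was singled out where its gap to the nearest other value exceeded Dixon's 95% critical share of the group's range, which chance gives in about 1 of 20 groups. Of 95 such groups of CD40 day 2 values examined, 9 met this, 2 of them in the 8 genes, 6 in library a, 2 in b and 1 in d.

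Spp1 stood at 112 CPM in CD40 d, against 29.1, 41.0 and 40.5 CPM in a, b and c. Fabp4 stood at 114 CPM in CD40 a, against 7.07, 18.7 and 21.4 CPM in b, c and d. The endothelial genes Clec4g (241 CPM) and Gpihbp1 (206 CPM) and the capillary endothelial marker list (0.043% of counts) were also singled out in CD40 a. So were Mgll, the monoglyceride lipase (12.7 CPM), and the tetraspanin gene Tspan9 (11.8 CPM) in the same library. In CD40 b, Clec5a was low at 90.5 CPM and the NK and T cell marker list was high at 0.0255% of counts. No cause of these values was tested.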

How the results depend on the processing

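Depth and the 2 Kupffer libraries limit the low genes most: Gpnmb rests on 4 Kupffer counts. Tyrobp, Lgals3, Cd9 and Fabp4 kept direction and call under all alternatives run. With 1 library left out, log2 fold changes ranged from 4.05 to 6.75 for Gpnmb, 1.18 to 3.03 for Spp1, 0.56 to 1.01 for Plin2 and -0.66 to 0.075 for Fabp5. Fabp5 turned positive without CD40 a (0.075), CD40 b (0.014) and Kupffer b (0.014). Plin2 was called with RLE scaling (0.795), with DESeq2 (0.790) and with no count filter (0.776, adjusted p = 0.00258). With no filter the adjusted p of several genes was much smaller, as for Fabp4 (1.99e-80); the cause was not tested. With 10 counts required in 4 libraries Gpnmb was not tested, since CD40 b held 9. Genes called ranged from 3206 to 5514 with a library left out (1406 to 2551 higher, 1800 to 2963 lower), lowest without Kupffer a. Leaving out 1 library gave 2 to 5 of the 8 genes called higher. It gave 0 to 2 signalling genes lower, 9 to 16 other lipid-associated macrophage genes higher, 3 to 7 droplet genes higher and 2 to 7 lower, 0 to 1 lipid carriers higher, 0 to 3 uptake genes higher, 2 to 6 tetraspanins higher, 0 to 2 galectins higher and 0 to 1 lower, and 0 to 4 MiT/TFE genes higher and 0 to 3 lower. With 10 counts in 4 libraries, 3 droplet genes were higher, 0 lipid carriers higher and 1 lower, 0 galectins higher and 0 lower, 1 osteopontin receptor lower and 4 MiT/TFE genes lower. With no filter 3 galectins were lower. The fit without marker genes of other liver cells changed no call among the 8 genes. It left the counts of the 8 genes themselves as they were, so it cannot show what part of them came from those cells. No paired analysis was possible because the columns carry no replicate numbers.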
